A study of Homo sapiens with 4 samples.

Results

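The genes described here are 7 members of the S100 family (S100A8, S100A9, S100A4, S100A6, S100A10, S100A11 and S100A13), S100PBP, which encodes a binding protein of S100P, and CTSG, which encodes cathepsin G. They are 9 of the 64252 gene IDs in the deposited count table, and were taken by gene symbol. They were chosen by symbol with their sh-SOX4 to sh-Scb count differences already known, so those differences are given as a description, with no p-value, and nothing rests on their test calls. The samples were Jurkat cells, an established line from a T cell acute lymphoblastic leukemia, transfected with a short hairpin RNA against SOX4 (sh-SOX4) or with a scrambled hairpin (sh-Scb), with 2 libraries a group. SOX4 is a SOXC-family transcription factor with a role in lymphocyte development. Total RNA was made into TruSeq libraries and read as counts per gene. The labels name no clone, promoter or time after transfection, and do not say that libraries of a group came from separate cultures.

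S100 proteins are small calcium-binding proteins with paired EF-hand motifs that mostly act as dimers, and most of their genes lie in a cluster on chromosome 1. S100A8 and S100A9 form calprotectin, an abundant cytosolic complex of neutrophils and monocytes that is released as an alarm signal and sensed through TLR4 and AGER. Cathepsin G is a serine protease stored in the azurophil granules of neutrophils, beside elastase, proteinase 3 and myeloperoxidase. Neither calprotectin nor cathepsin G is a textbook product of T cells.

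The sequences from 250 bases before to 50 bases after the start of 4 genes are shown because, among the 7 genes with enough counts to test, S100A8, S100A9 and CTSG had the highest sh-SOX4 to sh-Scb ratios and S100A10 the lowest. They come from RefSeq on GRCh38.p14, run 5′ to 3′ on the strand of the gene, and carry matches to the searched motifs in capitals. The motifs were TATAAA, on the gene's strand only, and, on both strands, TTGCNNAA (C/EBP), GAGGAA (PU.1), AACAAAG (SOX), TGACNNNGC (the antioxidant response element) and CACGTG (E-box). In S100A8 (chr1:153391024-153391323, minus strand, the middle of 3 annotated starts), S100A9 (chr1:153357604-153357903, plus strand), CTSG (chr14:24576201-24576500, minus strand) and S100A10 (chr1:151993810-151994109, minus strand) they read:
S100A8: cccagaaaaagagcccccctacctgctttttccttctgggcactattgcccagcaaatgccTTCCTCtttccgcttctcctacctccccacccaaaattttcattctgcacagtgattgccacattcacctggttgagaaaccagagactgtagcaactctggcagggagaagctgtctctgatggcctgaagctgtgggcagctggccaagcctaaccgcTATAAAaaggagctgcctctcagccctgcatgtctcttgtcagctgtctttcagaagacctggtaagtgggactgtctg
S100A9: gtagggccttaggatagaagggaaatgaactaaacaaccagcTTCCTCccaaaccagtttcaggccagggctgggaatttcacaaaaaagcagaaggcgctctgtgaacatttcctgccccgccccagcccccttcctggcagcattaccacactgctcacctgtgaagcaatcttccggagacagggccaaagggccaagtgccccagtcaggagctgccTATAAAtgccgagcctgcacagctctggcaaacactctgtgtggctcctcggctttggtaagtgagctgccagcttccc
CTSG: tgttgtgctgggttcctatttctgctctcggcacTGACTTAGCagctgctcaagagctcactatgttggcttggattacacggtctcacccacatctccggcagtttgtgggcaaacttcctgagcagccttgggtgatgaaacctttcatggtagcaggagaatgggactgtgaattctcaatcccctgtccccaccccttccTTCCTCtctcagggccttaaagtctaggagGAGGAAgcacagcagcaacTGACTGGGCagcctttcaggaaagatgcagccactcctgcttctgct
S100A10: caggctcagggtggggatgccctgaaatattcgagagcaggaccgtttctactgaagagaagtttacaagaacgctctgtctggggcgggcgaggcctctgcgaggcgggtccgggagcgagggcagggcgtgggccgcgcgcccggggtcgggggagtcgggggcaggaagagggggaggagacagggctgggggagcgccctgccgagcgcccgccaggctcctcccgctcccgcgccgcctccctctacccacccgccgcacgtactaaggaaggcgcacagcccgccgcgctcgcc

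The S100A8 and S100A9 windows shown here each held TATAAA beginning 29 bases before the start. This motif was found in 7.33% of 35114 promoter windows of this length. Each also held a TTCCTC match, the reverse complement of GAGGAA, which 27.9% of windows hold on either strand. That match began at -189 in S100A8 and at -208 in S100A9. The windows of the other S100A8 starts differed: the first held TATAAA at -126 and no GAGGAA on either strand, and the third held TTCCTC at -74 and no TATAAA. CTSG had no TATAAA. It held GAGGAA at -16, TTCCTC at -46 and TGACNNNGC matches at -216 and 4, and 13.3% of windows hold the last motif. S100A10 held none of the motifs. The S100A8, S100A9 and CTSG windows had 2, 5 and 3 CpG dinucleotides at 52.3%, 55.7% and 53.0% G and C, against 32 CpG at 71.7% in S100A10. The median over all windows was 14 CpG at 58.7%. Of the genes not shown, S100A4 had 8 CpG, S100A11 22 and S100A6 31. The S100A13 windows had 12, 11 and 19, and the S100PBP windows 26, 24 and 1. All 9 genes matched the table, with 15 windows in all. AACAAAG, held by 5.20% of windows, and CACGTG, held by 7.26%, were found in none of the 15. TTGCNNAA, held by 10.5%, was found in the S100A11 window and in 1 of 3 S100PBP windows. TATAAA also began at -31 in the S100A4 window and at -29 in 1 of 3 S100A13 windows. GAGGAA was also found in 1 of 3 S100PBP windows, and TGACNNNGC in 1 of 3 S100A13 windows. These are letter matches, not binding sites.

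SOX4 itself was lower in both libraries that carry its hairpin. Its counts were 6049 and 5914 in sh-SOX4, against 10246 and 8344 in sh-Scb. Its depth-scaled level was 195 ± 5.61 CPM in sh-SOX4, 71.1% of the 274 ± 4.26 CPM in sh-Scb (SD, n = 2 each). CPM here means counts scaled to a common library size by TMM, which corrects library totals for differences in composition. The 4 libraries summed to 29093287 to 36636219 counts. Of 19897 IDs with enough counts to test, edgeR's quasi-likelihood test called 4609 higher and 4166 lower in sh-SOX4 at an adjusted p under 0.05. With library totals in place of TMM the split was 3629 higher and 5260 lower, and the median over tested IDs moved to -0.11, in place of -0.01, on the log2 fold change scale. All 12 T cell markers looked up, the CD3 chains, LCK and ZAP70 among them, had enough counts to test. Of these, 7 rose and 2 fell (CD247 and CD5), where 23.2% of all tested IDs rose and 20.9% fell. The 12 summed to 1989 to 2085 CPM in sh-SOX4 and 1741 to 1777 CPM in sh-Scb.

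S100A9, the partner that is also found without S100A8, had the highest length-scaled level of the S100 genes in sh-SOX4 (chromosome 1, 153357854 to 153361027). The sh-SOX4 libraries held 742 and 687 of its reads and the sh-Scb libraries 175 and 115. Both sh-SOX4 libraries stood above both sh-Scb libraries. In CPM this was 23.4 and 23.1 in sh-SOX4 and 4.63 and 3.82 in sh-Scb. The ratio of means was 5.50, which is 2.45 on the log2 scale in the edgeR fit (SE 0.13). Of all tested IDs, 52 had a larger log2 fold change.

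S100A8, the other chain of calprotectin (chromosome 1, 153390032 to 153391188), was counted 42 and 36 times in the sh-SOX4 libraries and 0 times in either sh-Scb library. The sh-SOX4 level was 1.32 and 1.21 CPM. Set against a floor of 3 counts over the sh-Scb group, the pooled sh-SOX4 level was 28.7-fold higher. That floor covers counting error in sh-Scb only, not error in the sh-SOX4 counts or variation between libraries. The fitted log2 fold change is not given, since with 0 counts on one side it depends on the prior count.

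S100A8 made up 5.36% and 4.98% of the counts in S100A8 and S100A9 together in the sh-SOX4 libraries, and 5.18% over both (exact 95% binomial interval 4.11% to 6.42%). In sh-Scb it was 0 of 290 such counts, which allows a share of up to 1.03%. The limit takes 3 counts as the floor, and the exact 95% interval for the same 0 ends at 1.26%. These intervals and limits cover counting error only.

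CTSG, the cathepsin G gene (chromosome 14, 24573522 to 24576260), was counted 2195 and 2272 times in the sh-SOX4 libraries and 772 and 597 times in the sh-Scb libraries. Its level was 69.2 and 76.3 CPM in sh-SOX4 and 20.4 and 19.8 CPM in sh-Scb. The groups did not overlap. The ratio of means was 3.62, with a log2 fold change of 1.85 and an SE of 0.079, and 132 tested IDs had a larger one. CTSG was thus readily detected in the control libraries, where S100A8 had 0 counts. In bulk RNA, a larger share of cells with a transcript and more of it per cell cannot be told apart, here or for any gene below.

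**Figure D1:**
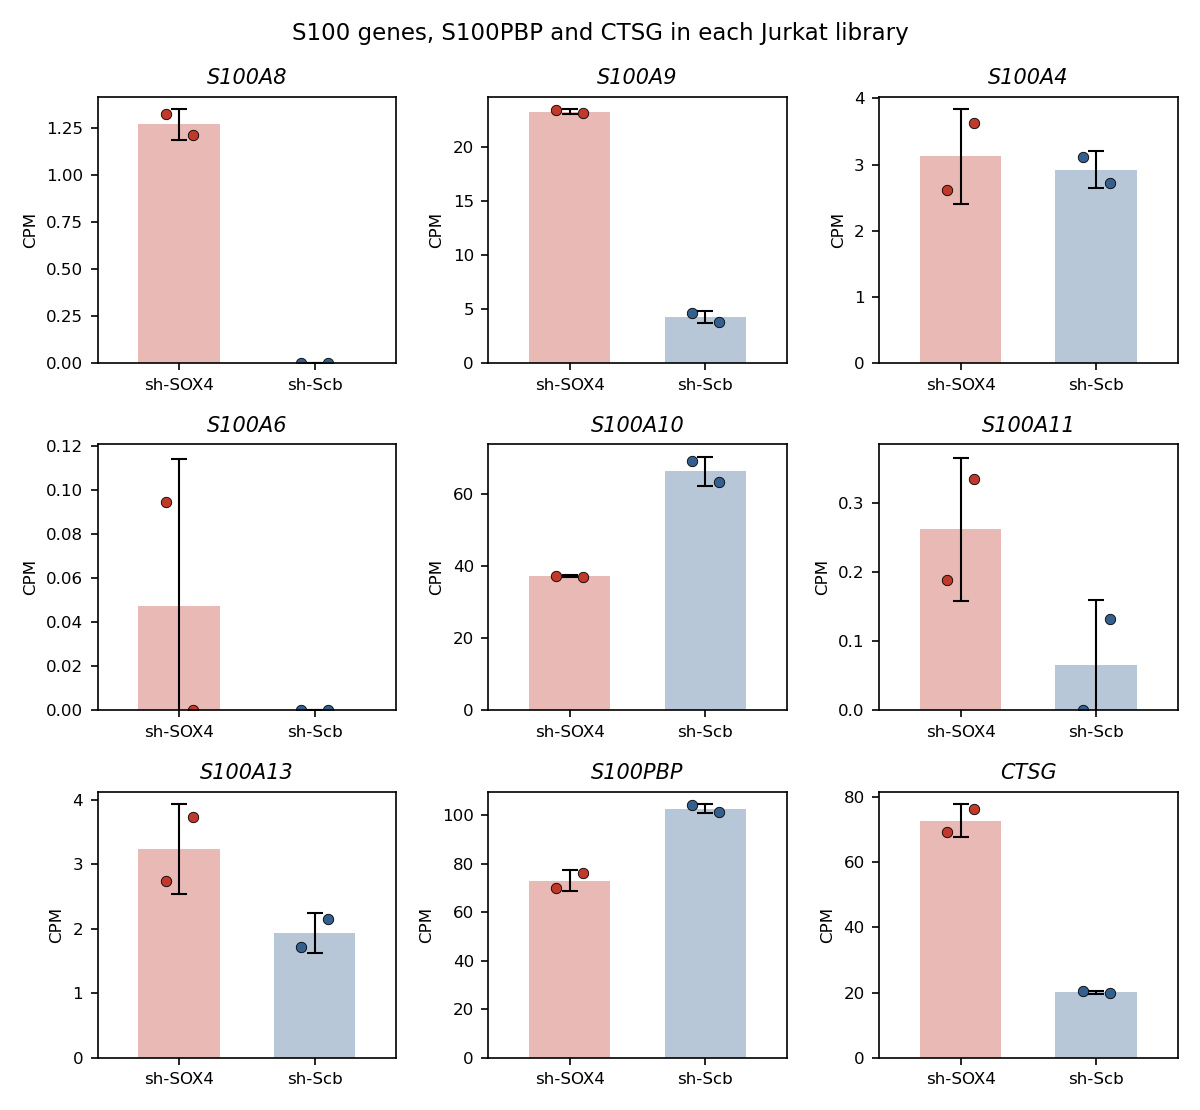
CPM of the 9 genes in each library, with points for the 2 libraries of sh-SOX4 (left) and sh-Scb (right), bars for the group mean and error bars for the SD; each panel has its own axis from 0. S100A8, S100A9 and CTSG sit higher in both sh-SOX4 libraries, S100A10 and S100PBP sit lower, and the groups overlap for S100A4 and S100A6.

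S100A10, the partner of annexin A2 at the plasma membrane (chromosome 1, 151982915 to 151994390), went the other way. It had 1187 and 1104 counts in sh-SOX4 and 2620 and 1914 in sh-Scb. Its level was 37.4 and 37.1 CPM in sh-SOX4 and 69.3 and 63.5 CPM in sh-Scb, so that sh-SOX4 held 56.1% of the sh-Scb mean. On the log2 scale the fold change was -0.83 (SE 0.070). S100PBP (chromosome 1, 32816767 to 32858879, far from the cluster) was also lower, at 69.9 and 76.1 CPM in sh-SOX4 and 104 and 101 CPM in sh-Scb. The sh-SOX4 mean was 71.1% of the sh-Scb mean, and the fold change was -0.49 on the log2 scale (SE 0.058). For both genes the groups did not overlap.

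The other members had few counts. S100A13, which takes part in the unconventional release of FGF1 (chromosome 1, 153618787 to 153631360), was counted 87 and 111 times in sh-SOX4 and 65 times in each sh-Scb library. Its level was 2.74 and 3.73 CPM in sh-SOX4 and 1.72 and 2.16 CPM in sh-Scb, with a log2 fold change of 0.74 and an SE of 0.27. Of its exonic bases, 33.5% also lie in S100A1 on the opposite strand or in another annotated gene. No source used here says whether counting used strand, and reads in the shared bases cannot be told apart by gene.

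S100A4, a binding partner of nonmuscle myosin IIA (chromosome 1, 153543613 to 153550136), was counted 83 and 108 times in sh-SOX4 and 118 and 82 times in sh-Scb. Its groups overlapped, at 2.62 and 3.63 CPM in sh-SOX4 and 3.12 and 2.72 CPM in sh-Scb, and its fold change was 0.09 on the log2 scale (SE 0.25). With library totals as the scaling, or without sh-SOX4 replicate 2, this value was -0.01 and -0.16, so no direction is given. S100A11, a binding partner of annexin A1 (chromosome 1, 152032506 to 152047907), had 6 and 10 counts in sh-SOX4 and 0 and 4 in sh-Scb. S100A6, or calcyclin (chromosome 1, 153534599 to 153536244), had 3 and 0 counts in sh-SOX4 and none in sh-Scb. The last 2 genes had too few counts to test. S100A11 has a pair of annotated pseudogene copies, which had at most 1 count in any library.

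Among the 7 of these genes with enough counts, edgeR called 4 higher, S100A8, S100A9, S100A13 and CTSG, against 23.2% of all tested IDs called higher. It called 2 lower, S100A10 and S100PBP, against 20.9% called lower and 44.1% called in either direction. The groups did not overlap in CPM for 6 of the 7, S100A4 being the exception, against 72.9% of all tested IDs. Since the genes were picked with this comparison known, nothing is read from these counts. S100A13 was called under 4 of 11 alternative settings, was not called under 6 and was not tested under 1.

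Scaled by the length of their merged exons, the 9 genes stood in a different order in the 2 groups. In sh-SOX4, CTSG came first at 53.0 ± 3.66 CPM per kb, then S100A9 at 40.3 ± 0.389, S100A10 at 24.1 ± 0.156 and S100PBP at 7.94 ± 0.481 (SD, n = 2). S100A4 followed at 3.05 ± 0.697 CPM per kb, then S100A13 at 1.46 ± 0.315 and S100A8 at 1.26 ± 0.0808, and S100A13 and S100A8 overlapped between libraries. The place of S100A9 above S100A10 rests on the length scaling. In CPM, S100A10 stood above S100A9 in sh-SOX4 as well, at 37.3 against 23.2. Merged exons need not match the transcripts present in these cells. In sh-Scb, S100A10 came first at 43.0 ± 2.64 CPM per kb, then CTSG at 14.6 ± 0.308, S100PBP at 11.2 ± 0.199 and S100A9 at 7.32 ± 0.993 (SD, n = 2). S100A11, S100A8 and S100A6 came last there, and their libraries overlapped.

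**Figure D2:**
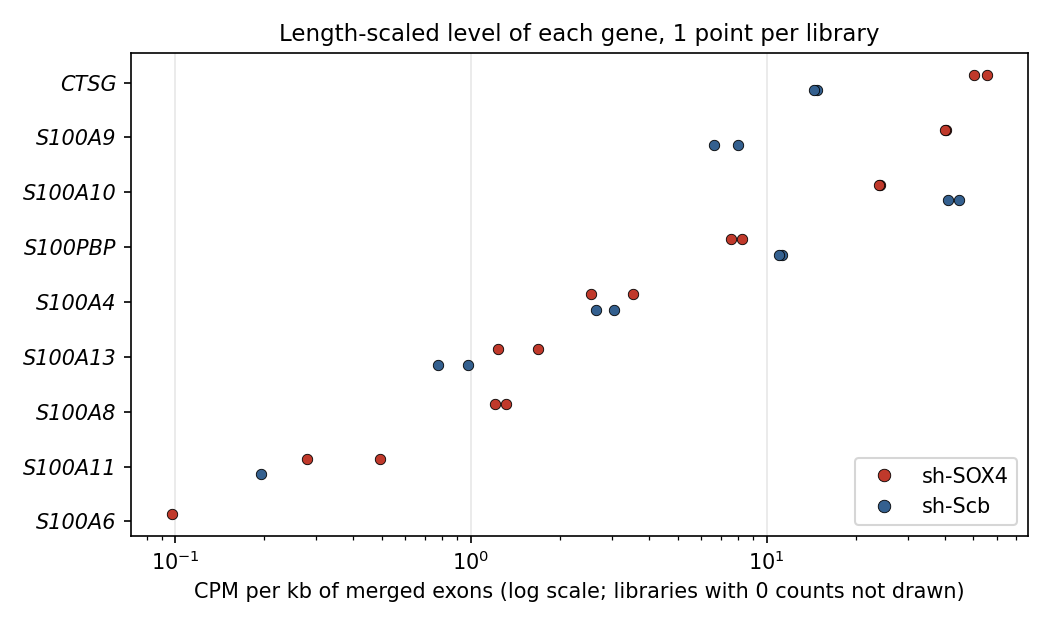
Length-scaled level of each gene in CPM per kb of merged exons on a log axis, 1 point per library, sh-SOX4 above sh-Scb within each row; libraries with 0 counts are not drawn. CTSG and S100A9 lead in sh-SOX4 at 53.0 and 40.3 CPM per kb, and S100A10 leads in sh-Scb at 43.0.

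Summed over 21 S100 genes, the family gave 74.3 and 75.2 CPM in sh-SOX4 and 84.4 and 76.8 CPM in sh-Scb. Both sh-SOX4 sums were lower, but 75.2 and 76.8 lie closer together than the 2 sh-Scb sums do. S100A10, chosen with its difference known, was the largest part of the sum in every library. The makeup of the family differed too. S100A9 was 31.5% and 30.7% of the family sum in sh-SOX4 and 5.48% and 4.97% in sh-Scb. S100A10 was 50.4% and 49.3% in sh-SOX4 and 82.1% and 82.7% in sh-Scb. These shares are in CPM and are not scaled by length.

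The other 14 S100 genes stayed low, at 6.53 and 6.15 CPM in sum in sh-SOX4 and 5.66 and 4.42 CPM in sh-Scb. S100A12, which lies between S100A9 and S100A8 and encodes another myeloid S100 protein, had 0 counts in all 4 libraries, as did S100A7, S100A7A, S100A7L2 and S100G. Of the 6 with enough counts, edgeR called 0, DESeq2 and limma-voom called 0, and 0 had an unadjusted p under 0.05 by any of these tools. Over all tested IDs, edgeR called 44.1% in either direction. S100P, the partner of S100PBP, had 43 and 30 counts in sh-SOX4 and 52 and 37 in sh-Scb. S100A1, which overlaps S100A13, had 7 and 57 counts in sh-SOX4 and 37 and 17 in sh-Scb. Without sh-SOX4 replicate 1 it was called higher, with an edgeR adjusted p of 0.0312, so that 1 library decides it.

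Cathepsin G also changed place among the cathepsins. Per kb, CTSG ranked first of 14 cathepsin genes in both sh-SOX4 libraries, at 50.4 and 55.5 CPM per kb. In both sh-Scb libraries it ranked second at 14.9 and 14.4 CPM per kb, behind CTSW, a cathepsin of cytotoxic lymphocytes, at 44.7 and 41.6. CTSD was close behind CTSG there, at 14.2 and 14.3 CPM per kb. These places depend on the merged exon lengths. In CPM, CTSB stood above CTSG in every library, at 123 and 127 in sh-SOX4 and 104 and 95.9 in sh-Scb. CTSB was named after its values were seen. Of 11 tested among the other cathepsins, 4 rose and 4 fell, or 36.4% each against 23.2% and 20.9% of all tested IDs. The list median log2 fold change was -0.20 against -0.01 over all tested IDs. CTSW fell to 45.8 ± 3.61 CPM in sh-SOX4, against 74.1 ± 3.75 CPM in sh-Scb (SD, n = 2 each; edgeR adjusted p = 3.59e-05). CTSV, a cysteine protease close to cathepsin L, fell by 0.69 on the log2 scale (SE 0.082). The aspartic protease gene CTSD rose by 0.69 on the log2 scale (SE 0.062), and 52.7% of its exonic bases also belong to other genes.

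The genes for the other contents of neutrophil granules were mostly at the limit of detection. Of 20 on the list, 5 had 0 counts in all libraries, lysozyme (LYZ) among them, and 6 had enough counts to test. ELANE, the elastase gene, had 0 and 0 counts in sh-SOX4 and 0 and 2 in sh-Scb. PRTN3, for proteinase 3, had 2 and 0 counts in sh-SOX4 and 5 and 7 in sh-Scb. AZU1, for azurocidin, had 0 and 2 counts in sh-SOX4 and 3 and 4 in sh-Scb. MPO, for myeloperoxidase, had 6 and 12 counts in sh-SOX4 and 11 and 1 in sh-Scb. None of these 4 genes had enough counts to test, in the same libraries in which CTSG had 597 to 2272 counts.

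Of the 6 tested, 1 rose and 2 fell, or 16.7% and 33.3% against 23.2% and 20.9% of all tested IDs. The list median was -0.17. The riser was RNASE2, which encodes an eosinophil ribonuclease, with 33 and 30 counts in sh-SOX4 and 5 and 0 in sh-Scb. Its log2 fold change was 3.76 (SE 0.77, edgeR adjusted p = 0.00284), and DESeq2 gave it no adjusted p. The size of this fold rests on 5 control counts in 1 library: it was 2.91 on the log2 scale without sh-Scb replicate 2, and without sh-Scb replicate 1 the control is at 0 and no fold is given. LTF, for lactoferrin, fell by 1.44 on the log2 scale (SE 0.36), and SRGN, the granule proteoglycan serglycin, fell by 0.35 (SE 0.11). Without sh-SOX4 replicate 1, SRGN was not called (edgeR adjusted p = 0.168, the highest of a range that began at 0.00357).

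CTSC, the protease that activates cathepsin G and the granzymes, was at 70.9 ± 3.50 CPM in sh-SOX4 and 69.2 ± 0.0693 CPM in sh-Scb (SD, n = 2 each), and did not pass the test. Of the 9 inhibitor genes listed with it, 2 had enough counts, and 1 of them rose, SERPINB8, by 0.52 on the log2 scale (SE 0.073, edgeR adjusted p = 0.000264). With CTSC, 3 genes of this list were tested, and 33.3% rose and 0% fell, against 23.2% and 20.9% of all tested IDs. The list median was 0.03.

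The granzyme and cytolytic granule genes went both ways. Of 12 tested, 4 rose and 3 fell, or 33.3% and 25% against 23.2% and 20.9% of all tested IDs. The list median was 0.26. UNC13D, which encodes a factor for the release of cytotoxic granules, rose to 127 and 131 CPM in sh-SOX4, against 65.5 and 69.6 CPM in sh-Scb (log2 fold change 0.94, SE 0.054, edgeR adjusted p = 6.91e-07). The lysosomal membrane gene LAMP1 rose by 0.31 on the log2 scale (SE 0.047), while the granzyme gene GZMA fell by 0.81 (SE 0.10).

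Of the S100 partners and receptors, 14 of 18 could be tested. Of these, 3 rose and 2 fell, or 21.4% and 14.3% against 23.2% and 20.9% of all tested IDs. The list median was 0.03. ANXA2, the partner of S100A10, was at 123 and 115 CPM in sh-SOX4 and 116 and 116 CPM in sh-Scb, with a log2 fold change of 0.04 (SE 0.051) that did not pass. The ANXA2 groups overlapped, unlike those of S100A10. MYH9, the myosin chain that S100A4 binds, had a log2 fold change of 0.05 (SE 0.037) and did not pass. CACYBP, which encodes the calcyclin-binding protein, rose to 193 and 191 CPM in sh-SOX4, against 119 and 110 CPM in sh-Scb (log2 fold change 0.74, SE 0.052, edgeR adjusted p = 2.26e-06), while S100A6 itself had at most 3 counts in any library.

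SUGT1, a cochaperone of HSP90 related to the calcyclin-binding protein, rose by 0.63 on the log2 scale (SE 0.050). ANXA1, the partner of S100A11, rose by 0.40 (SE 0.051). CD69, a lymphocyte activation antigen, fell to 30.8 ± 1.17 CPM in sh-SOX4, against 50.5 ± 3.44 CPM in sh-Scb (SD, n = 2 each; edgeR adjusted p = 6.63e-05). Of the calprotectin receptors named at the start, TLR4 had 0 and 5 counts in sh-SOX4 and none in sh-Scb. AGER was at 1.58 and 1.98 CPM in sh-SOX4 and 2.33 and 2.89 CPM in sh-Scb, and did not pass. BSG, also on the list of partners and receptors, was at 209 ± 5.95 CPM in sh-SOX4 and 207 ± 6.15 CPM in sh-Scb. It did not pass, and was named after its values were seen.

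Myeloid lineage factors, some of which control calprotectin and granule genes in myeloid cells, did not share a direction. Of 12 tested, 3 rose and 2 fell, or 25% and 16.7% against 23.2% and 20.9% of all tested IDs. The list median was -0.19. With library totals as the scaling, 1 rose and 3 fell. CEBPE, a factor of granulocyte maturation, fell to 14.8 and 14.8 CPM in sh-SOX4, against 38.3 and 34.4 CPM in sh-Scb (log2 fold change -1.30, SE 0.098, edgeR adjusted p = 3.87e-06). GFI1, a repressor needed in both neutrophil and lymphoid development, fell by 0.84 on the log2 scale (SE 0.087). MYB, a progenitor factor, rose by 0.46 (SE 0.041). SPI1, which encodes PU.1, had 0 and 8 counts in sh-SOX4 and none in sh-Scb. It was named after its values were seen.

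Other EF-hand genes were well detected. Of 24 tested, 8 rose and 7 fell, or 33.3% and 29.2% against 23.2% and 20.9% of all tested IDs. The list median was 0.10. With library totals as the scaling 3 rose. NUCB2, for a Golgi calcium-binding protein, fell by 0.45 on the log2 scale (SE 0.041). CALU, for calumenin of the secretory pathway, fell by 0.47 (SE 0.044). GCA, for grancalcin, a neutrophil EF-hand protein, fell to 9.06 ± 0.820 CPM in sh-SOX4, against 17.1 ± 0.468 CPM in sh-Scb (SD, n = 2 each; edgeR adjusted p = 0.000181).

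**Figure D3:**
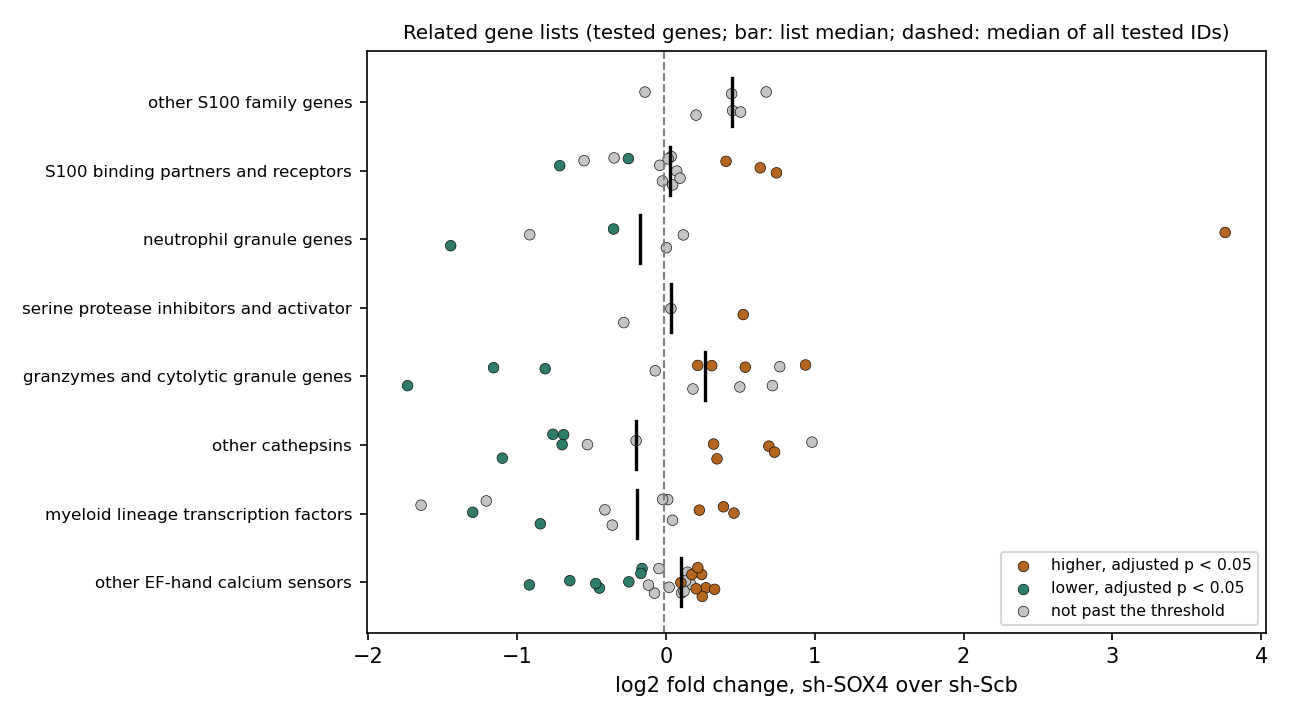
Log2 fold change, sh-SOX4 over sh-Scb, of every tested gene of the 8 related lists, coloured by whether it passed the test and in which direction, with a bar at each list median and a dashed line at the median of all tested IDs, -0.01. The point at 3.76 is RNASE2, whose fold rests on 5 counts in sh-Scb, and calls in both directions appear in the lists of partners, granule genes, granzymes, cathepsins, factors and EF-hand sensors.

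The libraries were also read for markers of other cells. None of the 15 myeloid markers is among the 9 genes, and LYZ and MPO are shared with the granule list. Of the 15, 2, LYZ and FCN1, had 0 counts in all 4 libraries, and 9 had enough counts to test. Of those 9, 1 rose (AIF1) and 1 fell (CD68), where 23.2% of all tested IDs rose and 20.9% fell. The summed level of all 15 was 21.5 to 21.9 CPM in sh-SOX4 and 19.5 to 23.6 CPM in sh-Scb, so the groups overlapped. Most of this sum came from AIF1, at 11.7 CPM in sh-SOX4 and 9.09 in sh-Scb, and CD68, at 3.96 and 6.70. The sum therefore says little about the other markers. The monocyte marker CD14 had 13 and 13 counts in sh-SOX4 and 10 and 0 in sh-Scb. The 9 erythroid and platelet markers summed to 1.61 to 2.42 CPM in sh-SOX4 and 3.05 to 3.23 CPM in sh-Scb, with 5 at 0 throughout. The 8 epithelial markers summed to 1.01 to 1.68 CPM in sh-SOX4 and 1.01 to 1.36 CPM in sh-Scb, with 2 at 0 throughout.

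Genes beside these genes on the chromosome were tested next. Within 200 kb of a start there were 85 other IDs, 35 of them with enough counts. Of those, 9 rose, or 25.7% against 23.2% of all tested IDs, and 5 fell, or 14.3% against 20.9%. With library totals as the scaling, 8 rose and 8 fell. In the S100 cluster on chromosome 1, 20 of 61 IDs were tested, and 5 rose and 3 fell. PRR9, a proline-rich epidermal gene, rose to 1.90 ± 0.0759 CPM in sh-SOX4, against 0.444 ± 0.158 CPM in sh-Scb (SD, n = 2 each; log2 fold change 2.07, SE 0.38, edgeR adjusted p = 0.00153). HRNR, for the epidermal protein hornerin, rose to 2.51 ± 0.296 CPM in sh-SOX4, against 0.927 ± 0.185 CPM in sh-Scb (SD, n = 2 each; log2 fold change 1.42, SE 0.31, edgeR adjusted p = 0.00374).

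PGLYRP3, for a peptidoglycan recognition protein, lies 60.0 kb from S100A9 and had 19 and 18 counts in sh-SOX4 and 7 and 6 in sh-Scb. It rose by 1.63 on the log2 scale (SE 0.55), a call lost under 6 of 9 alternatives. On the S100A13 side, the RNA-binding protein genes CHTOP and ILF2 rose by 0.37 (SE 0.056) and 0.40 (SE 0.047), and GATAD2B, a subunit gene of the NuRD complex, fell by 0.40 (SE 0.070). On the S100A10 side, TDRKH-AS1 fell by 1.25 (SE 0.40), a call lost under 3 of 10 alternatives. Of the TDRKH-AS1 exonic bases, 38.2% also lie in other genes. PGLYRP4, named after its values were seen, lies nearer to S100A9, at 27.7 kb, and had a log2 fold change of 0.74 (SE 0.41) that did not pass.

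**Figure D4:**
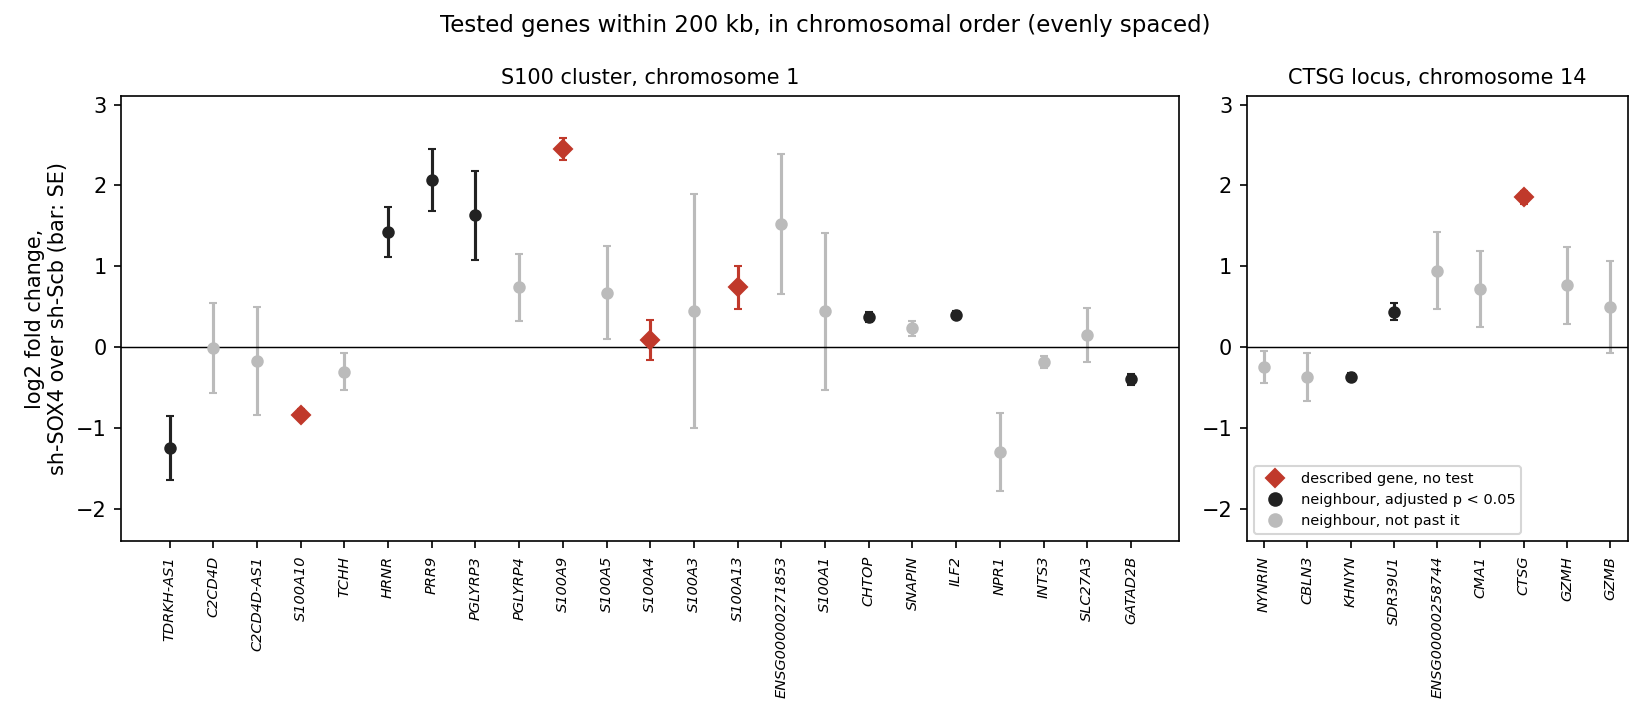
Log2 fold change, sh-SOX4 over sh-Scb, with its SE, of tested genes within 200 kb of the S100 genes on chromosome 1 (left) and of CTSG on chromosome 14 (right), in chromosomal order and evenly spaced. Red diamonds are genes described above without a test (S100A8 is left out, having 0 counts in sh-Scb), black points passed the test and grey points did not; PRR9 at 2.07, PGLYRP3 at 1.63 and HRNR at 1.42 lie between S100A10 and S100A9.

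CTSG lies in a small cluster of granule protease genes, and its neighbours there were low. The chymase gene CMA1 had 24 and 18 counts in sh-SOX4 and 15 and 13 in sh-Scb. GZMH had 19 and 21 counts in sh-SOX4 and 15 and 11 in sh-Scb, and GZMB had 24 and 13 counts in sh-SOX4 and 10 and 18 in sh-Scb. Their log2 fold changes were 0.72 (SE 0.47), 0.77 (SE 0.48) and 0.50 (SE 0.57), and none passed. Of 8 tested IDs around CTSG, SDR39U1 rose by 0.44 (SE 0.11) and KHNYN fell by 0.36 (SE 0.049), and 65.7% and 29.3% of their exonic bases also lie in other genes. Around S100PBP, 7 of 15 IDs were tested. The tyrosyl-tRNA synthetase gene YARS1 rose by 0.69 (SE 0.045), with exons that cover 4.31% of the S100PBP exonic bases. TMEM54 rose by 0.33 (SE 0.11). KIAA1522 fell by 0.42 (SE 0.11). The TMEM54 call was lost under 8 of 11 alternatives and the KIAA1522 call under 1.

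The genes whose profile lay nearest to those of S100A9, CTSG and S100A10 were looked up among 11905 other genes, by the distance between log2 CPM values centred on the gene's mean over the 4 libraries. Nearest to S100A9 were OSGIN1, an oxidative stress response gene, at a distance of 0.268, the quinone reductase gene NQO1 at 0.273 and RAET1E, for an NKG2D ligand, at 0.394. Nearest to CTSG were SLA2, for an adaptor that restrains T cell receptor signalling, at 0.0724, the nucleoside diphosphate kinase gene NME1 at 0.0836 and RGL4 at 0.104. Nearest to S100A10 were SFXN1, for a mitochondrial serine transporter, at 0.0365, ARVCF, a catenin gene, at 0.0390 and DENND5A at 0.0399. With 4 libraries in 2 groups, such a distance mostly measures how alike the difference between the groups is.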

How the data were processed

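RNA-seq gene counts of 4 Jurkat libraries were used. The authors deposited whole-number counts per Ensembl gene ID, not normalized, and hg38, StringTie and HISAT2 2.2.0 appear in the submitters' processing notes, without roles. Nothing used here states the annotation release, strand setting or filtering. The control columns are named NC and were taken as sh-Scb, since the other columns name SOX4 and the replicate numbers match. Columns not used numbered 0, and no row lacked a gene ID.

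Symbols were found for 56105 of 64252 IDs, holding 98.0% of counts. Coordinates, merged exons and overlaps come from GENCODE 29, on GRCh38 (hg38). IDs were kept by filterByExpr (at least 10 counts, 15 in total). After TMM scaling, a model with group as its term was fitted in edgeR 4.0.16 (robust quasi-likelihood, R 4.3.3), with two-sided p-values adjusted by the Benjamini-Hochberg method over 19897 IDs. The SE is the log2 fold change divided by the square root of F. The labels name no separate cultures, so p-values reflect variation between these libraries, which may be technical. The median chi-square per gene between libraries of a group was 1.59 in sh-SOX4 and 1.70 in sh-Scb, where sampling alone gives 0.455, and all 4 libraries were kept as separate.

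The genes described and the lists were chosen with earlier results of these data known. Named genes were the 9 described, SOX4, the 3 of each list with the smallest adjusted p among those that passed, known partners, neighbours that passed (except 2 not reported here), and the 3 nearest profiles among genes with a mean log2 CPM of at least 2. The settings varied were the scaling (median-ratio or library totals), the filter (none, or 10 CPM in at least 2 libraries), DESeq2 1.42.0, limma-voom (limma 3.58.1), a replicate block and each library left out. The pipeline was tested on simulated counts. Figures were drawn with matplotlib 3.10.9.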

Additional observations from a re-analysis of the deposited data

How the results depend on the processing

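The SOX4 change kept its direction and its call under all 11 alternatives. For the 9 genes described, 16 values moved by more than the spread between libraries, and none of the called ones changed sign. The other named or called genes were followed by their call and not by this spread, and 67 of their values lost the call under some alternative.

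With library totals, 1 myeloid factor rose, 3 EF-hand genes rose and 8 neighbours fell, and that scaling turned 52.5% of calls higher into 40.8%. With at least 10 CPM in 2 libraries, fewer genes were tested: 0 neutrophil granule genes rose and 1 fell, 1 granzyme gene fell, 2 other cathepsins fell, 5 neighbours rose, and 2 of the 9 described genes, S100A9 and CTSG, were called higher. Leaving out 1 library at a time gave 0 to 1 other S100 genes higher, 5 to 10 EF-hand genes higher and 3 to 5 neighbours lower. With a library left out, the lone library of its group is assumed to vary like the others. DESeq2 gave no adjusted p for PGLYRP3, RNASE2 and GNLY, so the counts of their lists under it are not given. The causes of these shifts were not tested.

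No shared deviation by replicate number was seen: the deviations of replicate 1 in sh-SOX4 and sh-Scb had a correlation of -0.028 across 19897 genes. This cannot tell whether libraries of the same number were made together, which the labels do not say. The fit with a replicate block called 8378 IDs in place of 8775, and under it S100A9 had a log2 fold change of 2.46 and CTSG of 1.85. Depth limits S100A6, S100A11 and the neutrophil granule genes, where 3 counts correspond to 0.0819 to 0.103 CPM before TMM scaling.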
